A study of Mus musculus with 5 samples.

Results

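The constitutive proteasome subunit genes were taken as the autosomal protein-coding genes of the mouse annotation named Psma, Psmb, Psmc, Psmd or Psme and a number, without the immunoproteasome genes Psmb8, Psmb9 and Psmb10. There were 41 of them among 21281 autosomal protein-coding genes. Of these, 39 encode subunits, assembly chaperones or activators of the proteasome. Psmc3ip, a factor of meiotic recombination, shares only the name, and Psme2b-ps carries a pseudogene's name although the annotation types it as protein-coding. A gene was called bound when the summit of a Runx3 peak lay in its body or within 5 kb of the transcription start site (TSS) of any of its protein-coding transcripts. The naming rule itself reads no measured value.

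Runx3, a DNA-binding transcription factor of the RUNX family, was immunoprecipitated from the chromatin of D1 cells and its DNA sequenced (ChIP-seq); D1 is a dendritic cell line derived from mouse spleen. The Runx3 IP group held 3 libraries made with a polyclonal rabbit antibody to mouse Runx3, and the NIS IP group held 2 libraries made with rabbit non-immune serum, which measures the background. All 5 libraries came from the same untreated cell line after fixation in 1% formaldehyde, so the results describe 1 line, and the peak list holds no expression against which its cell type could be checked. The methods speak of 2 replicate experiments where the design text lists 3 Runx3 and 2 NIS libraries, and the peak list was made from 1 Runx3 and 1 NIS alignment without a statement of which libraries each holds. The Runx3 alignment kept 8689867 tags and the NIS alignment 4946605 after duplicate removal, and 13014 peaks were called. No value per library could be given, there was no replicate spread to compare with, and the intervals below cover counting error only.

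The proteasome degrades proteins tagged with ubiquitin. Its barrel-shaped core is built of rings of alpha subunits, which gate the entrance, around rings of beta subunits, some of which cut the substrate. A regulatory particle caps the barrel, with a base that holds a ring of ATPases and a lid that removes ubiquitin. In dendritic cells the peptides it releases feed antigen presentation on MHC class I, and there the immunoproteasome genes supply alternative catalytic subunits. RUNX proteins bind a short core word in DNA, called here the RUNX core and searched for as TGTGGT or TGCGGT, on both strands, up to 100 bp from a summit.

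The sequences below come from the 10 peaks of highest fold at these genes and from the lower Psmd13 peak, at the promoter it shares with a neighbour. They show which peaks hold the core and, in the windows centred on the summit, how near the summit it lies. Each is reference sequence of build mm9, 5′ to 3′, in a window of 121 bp centred on the summit unless said otherwise. In the first group the capitals mark the RUNX core, read on either strand, so that ACCACA and ACCGCA are the core on the opposite strand. Within 5′ untranslated exons only 30 bp around the core are given. The windows are, in the order printed, Psma6 chr12:56488539-56488659 (+), with 2 cores on opposite strands, Psma6 chr12:56499620-56499740 (+), at the inner promoter, Psma6 chr12:56491342-56491462 (+), Psmd7 chr8:110112294-110112323 (−), Psma4 chr9:54798412-54798532 (+), Psmd1 chr1:88044259-88044379 (+), Psmb2 chr4:126354715-126354835 (+) and Psmd13 chr7:148068219-148068248 (+).
Psma6 first intron: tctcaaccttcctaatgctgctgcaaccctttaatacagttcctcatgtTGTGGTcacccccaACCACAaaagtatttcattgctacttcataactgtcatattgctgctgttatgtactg
Psma6 inner promoter: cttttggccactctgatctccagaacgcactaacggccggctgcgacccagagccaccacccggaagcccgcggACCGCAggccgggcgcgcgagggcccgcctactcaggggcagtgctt
Psma6 weakest peak: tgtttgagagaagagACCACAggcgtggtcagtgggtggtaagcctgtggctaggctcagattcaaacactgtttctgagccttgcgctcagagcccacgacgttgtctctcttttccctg
Psmd7 promoter: ggcctgtgtcgcTGCGGTtgctggtgtttg
Psma4 promoter: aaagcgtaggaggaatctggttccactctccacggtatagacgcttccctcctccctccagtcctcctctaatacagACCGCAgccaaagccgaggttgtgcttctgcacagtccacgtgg
Psmd1 intron: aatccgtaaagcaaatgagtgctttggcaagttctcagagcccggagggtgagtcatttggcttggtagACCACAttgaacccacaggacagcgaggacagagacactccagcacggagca
Psmb2 promoter: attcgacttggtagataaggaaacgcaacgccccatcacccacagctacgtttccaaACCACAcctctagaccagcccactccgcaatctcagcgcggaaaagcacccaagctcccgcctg
Psmd13 promoter: gttaccttgacgACCGCAacccgtgaggct

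A second group, also among the 10 peaks of highest fold, held no core within 100 bp of the summit. Here the capitals mark only its first 5 letters, TGTGG or TGCGG, on either strand, and in the strongest peak also GAGGAAGT, a word of the kind bound by PU.1, a myeloid ETS factor, picked after this sequence had been seen. The windows are Psma6 chr12:56490817-56490937 (+), Psmd13 chr7:148063385-148063505 (+) and Psmc2 chr5:21292570-21292690 (+), the last on an exon that the annotation types as coding.
Psma6 strongest peak: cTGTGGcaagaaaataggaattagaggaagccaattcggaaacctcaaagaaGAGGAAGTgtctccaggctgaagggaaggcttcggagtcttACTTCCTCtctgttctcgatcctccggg
Psmd13 upstream: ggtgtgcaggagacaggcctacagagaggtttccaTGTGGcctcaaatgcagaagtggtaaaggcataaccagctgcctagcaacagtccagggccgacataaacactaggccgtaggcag
Psmc2 exon: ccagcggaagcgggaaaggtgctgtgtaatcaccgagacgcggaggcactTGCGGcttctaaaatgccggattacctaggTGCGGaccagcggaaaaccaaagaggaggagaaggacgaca

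Of the 41 genes, 12 were bound, with 18 peaks between them. This was 29.3% of the genes (95% Wilson interval 17.6 to 44.5), against 28.7% of all autosomal protein-coding genes, so the share of bound proteasome genes lay at the background. A peak in a promoter, from 1 kb upstream to 100 bp downstream of any TSS, was found at 8 genes, or 19.5% (10.2 to 34.0), against 13.9% of all autosomal genes, and the interval holds the background. The bound genes were Psma4, Psma6, Psmb1, Psmb2, Psmb4, Psmc1, Psmc2, Psmd1, Psmd7, Psmd8, Psmd13 and Psme4. Psma6 had 4 peaks, Psmc2, Psmd1 and Psmd13 had 2 each, and the other 8 had 1 each. Having 4 or more peaks was seen at 1.92% of all autosomal genes.

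**Figure D1:**
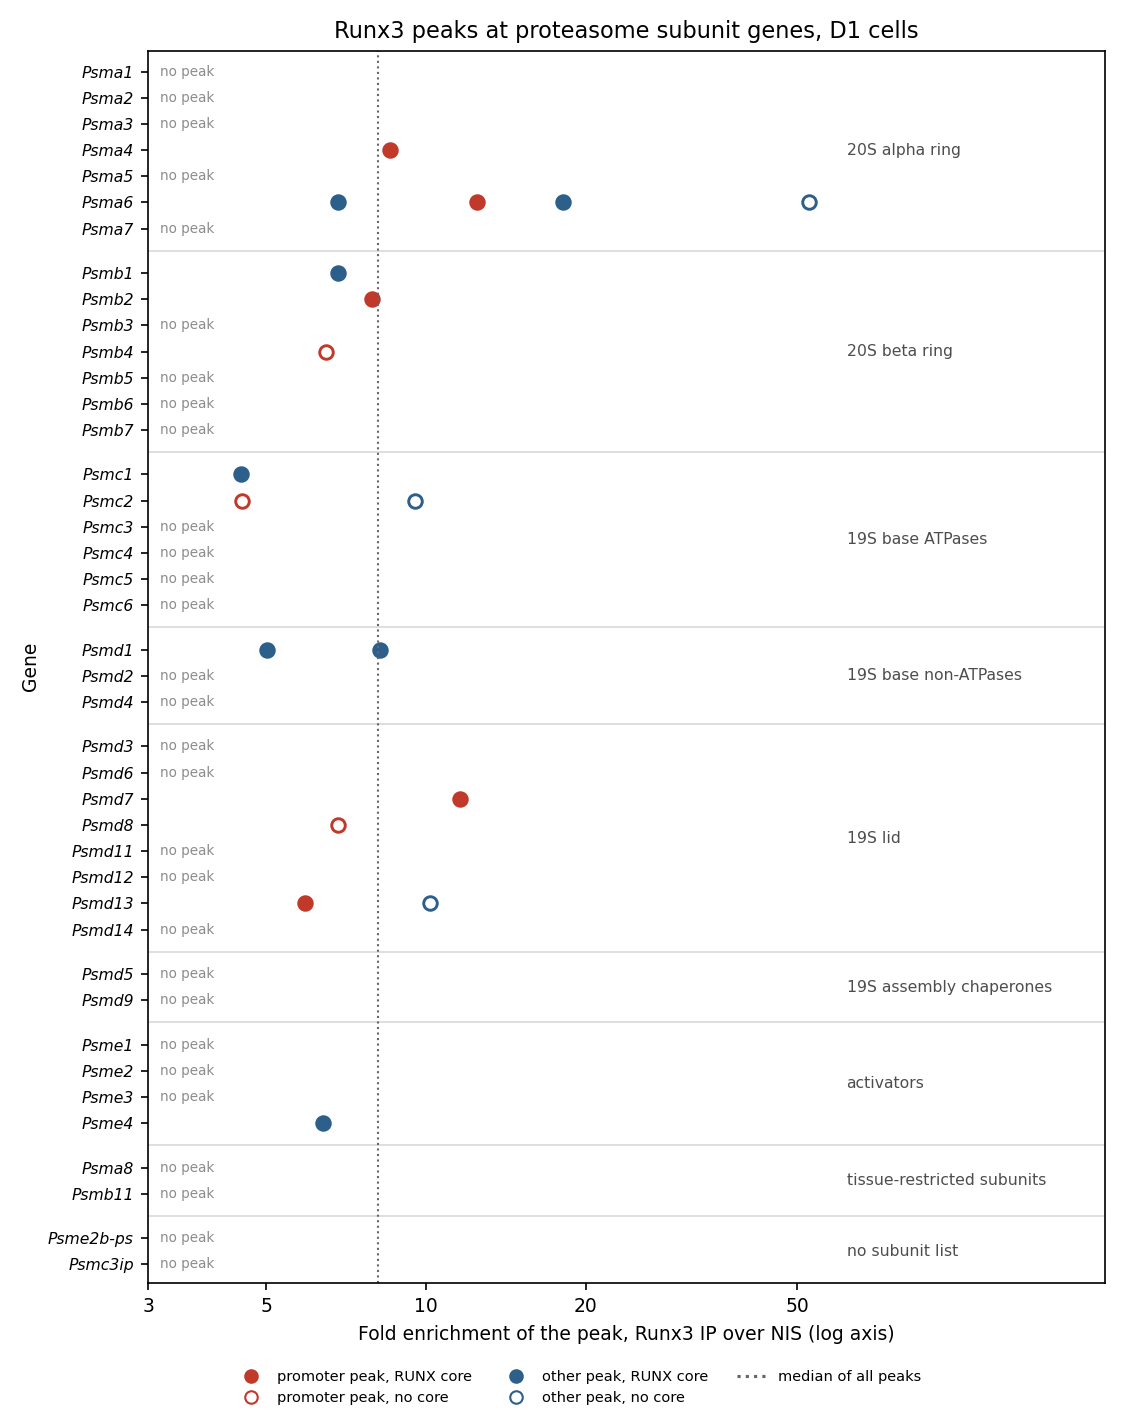
Fold enrichment of every Runx3 peak (Runx3 IP over NIS, log axis) at each of the 41 genes, grouped by role. Filled points hold a RUNX core within 100 bp of the summit, open points do not, red points lie in the gene's promoter and blue points elsewhere, and the dotted line is the median of all peaks, 8.12. Most peaks lie between 4.48 and 12.5, and both peaks above that belong to Psma6.

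The bound genes were spread over the core, the base, the lid and the activators. Among the alpha subunits 2 of 7 were bound, among the constitutive beta subunits 3 of 7, among the base ATPases 2 of 6, among the other base subunits 1 of 3, among the lid subunits 3 of 8 and among the activators 1 of 4. Neither of the 2 assembly chaperones Psmd5 and Psmd9 was bound, nor Psma8 and Psmb11, the subunits restricted to testis and thymic epithelium, nor the 2 genes outside the subunit lists. With groups of 2 to 8 genes, these counts describe the list and were not compared between roles.

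Fold enrichment is the authors' ratio of the Runx3 pileup to the NIS background, each plus 1. Across the 18 peaks its median was 7.36, against 8.12 over all 13014 peaks, and 10 of the 18 lay below that median. A fold of 10 or more was reached by 5 of the 18 peaks, and by 28.7% of all peaks. The summits carried a median of 21.5 Runx3 fragments (10 to 120), against 19 over all peaks. Peak width had a median of 186 bp, against 172 bp over all peaks. Outside Psma6, the summits carried 10 to 34 fragments.

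Psma6 encodes an alpha subunit of the core and held the strongest peak of the whole list. That peak, chr12:56490751-56490995, had a fold of 52.7, 120 fragments at the summit (exact Poisson interval 99.5 to 143), a −log10 q of 124 and an NIS background of 0.315, the genome average. The next peak of the list had a fold of 50.4. By −log10 q it was also first, and by pileup it ranked 3.

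The other 3 peaks of Psma6 were lower. The peak chr12:56488490-56488688 had a fold of 18.1, with 49 fragments (36.3 to 64.8), and ranked 419 in the list. The peak chr12:56499562-56499767 had a fold of 12.5 with 27 fragments (17.8 to 39.3), and chr12:56491326-56491480 had a fold of 6.82 with 14 (7.65 to 23.5). The intervals of the 18.1-fold and the 12.5-fold peaks overlap, as do those of the 12.5-fold and the 6.82-fold peaks, while the strongest stood clear of all 3. The 4 summits spanned 11.1 kb.

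How the peaks fall on Psma6 depends on its start site. The annotation gives an outer TSS at chr12:56485209, used by 1 transcript model, and an inner TSS at chr12:56499762, 14.6 kb further on. The 12.5-fold peak lay 82 bp upstream of the inner TSS, in its promoter. The strongest peak lay 5.67 kb downstream of the outer TSS and 8.88 kb upstream of the inner one, in the first intron of the longer transcript, and the 18.1-fold and 6.82-fold peaks lay on either side of it. With the inner transcript alone, only the promoter peak stays with Psma6, which remains bound, so the count of 12 genes does not move. From 100 kb before to 160 kb after the outer TSS there were 7 further peaks, with folds from 6.61 to 15.9, none of them inside Psma6. The nearest of these lay 39.0 kb before and 81.4 kb after the outer TSS. The region also holds Ppp2r3c, 1110008L16Rik and Nfkbia, the gene of an NF-κB inhibitor. Peaks were assigned by position alone, and which gene any of them acts on was not tested.

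**Figure D2:**
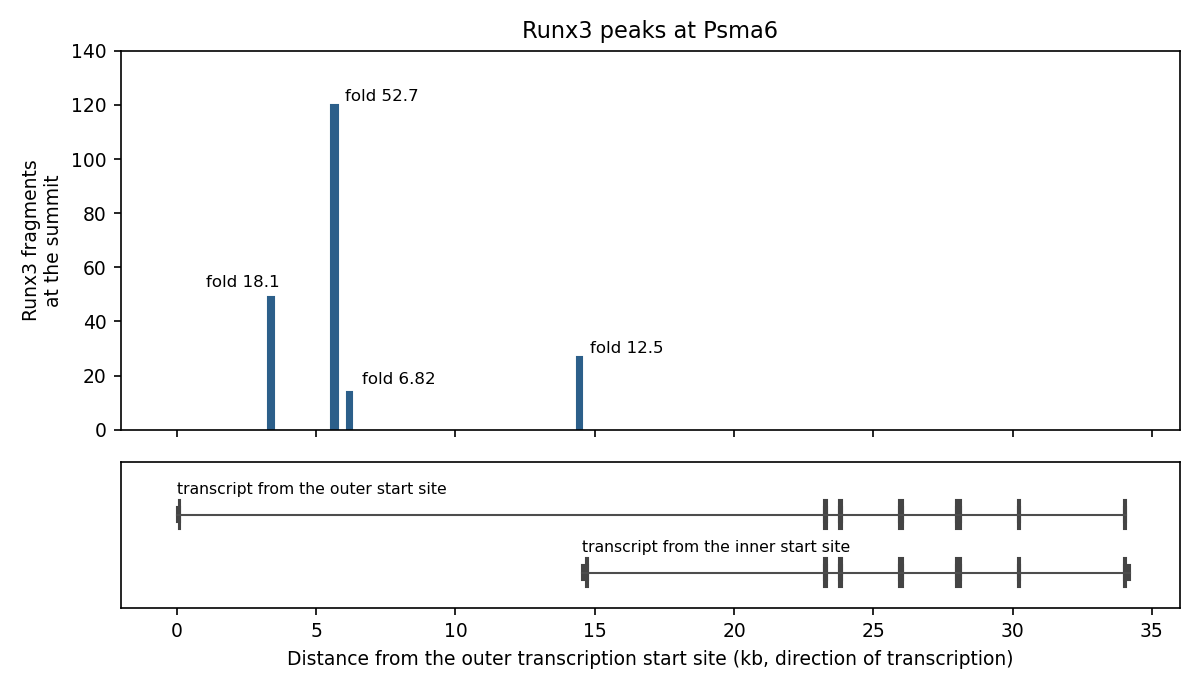
Runx3 fragments at the summit of each of the 4 Psma6 peaks (upper panel, bars drawn at the peaks' true width) above the exons of a transcript from each start site (lower panel, thick boxes coding), against distance from the outer TSS in kb. The 120-fragment peak and 2 lower ones lie between the start sites, and the 12.5-fold peak lies at the inner one.

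The sequence of the strongest peak held no RUNX core, neither within 100 bp of the summit nor within the called interval. Its window held TGTGGC, which has the first 5 letters of the core, 56.5 bp upstream of the summit, and GAGGAAGT centred 4.5 bp upstream and, on the opposite strand, 36.5 bp downstream. These words were chosen after the sequence had been seen. Within 100 bp of their summits, TGTGGC was present in 26.8% and GAGGAAGT in 10.9% of all peaks. The 3 lower peaks of Psma6 each held the core.

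Psma4 encodes another alpha subunit. Its peak, chr9:54798373-54798583, had a fold of 8.55 with 18 fragments (10.7 to 28.4) and lay 125 bp upstream of the TSS, with the core 19.5 bp from the summit. The summit also lay 289 bp downstream of the TSS of AY074887, inside this gene of the opposite strand. Psma1, Psma2, Psma3, Psma5 and Psma7 had no peak, and the summit nearest to any of their start sites lay between 16.9 kb (Psma2) and 80.5 kb (Psma1) away.

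Of the beta subunits, Psmb2 and Psmb4 were bound at their promoters. At Psmb2 the peak chr4:126354687-126354874 had a fold of 7.90 with 26 fragments (17 to 38.1), 99 bp upstream of the TSS, and its core lay 0.5 bp from the summit, the closest of all 12 cores. At Psmb4 the peak chr3:94690816-94690958 had a fold of 6.48 with 21 fragments, 15 bp upstream of the TSS, and no core. The peak given to Psmb1, chr17:15636835-15637024, with a fold of 6.82 and 14 fragments, lay 1.68 kb upstream of Psmb1 and 6 bp from the TSS of Tbp, the TATA-binding protein, so it lies in the promoter of Tbp. Psmb5, Psmb6 and Psmb7, which encode the catalytic beta subunits, and Psmb3 had no peak. Their nearest summits lay at 33.2 kb for Psmb5, 35.5 kb for Psmb6, 108 kb for Psmb7 and 25.1 kb for Psmb3.

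Among the base ATPases, which unfold the substrate, Psmc2 and Psmc1 were bound. Psmc2 had a peak 5 bp downstream of its TSS, chr5:21291011-21291208, with a fold of 4.51 on 22 fragments, and another 1.53 kb downstream, chr5:21292535-21292715, with a fold of 9.55 on 33 fragments (22.7 to 46.3). Neither held the core. The first of these had the highest NIS background of the 18 peaks, 2.00, and lay 37 bp from the TSS of Dnajc2, a gene of the opposite strand. The Psmc1 peak, chr12:101345738-101345856, was the weakest of all, with a fold of 4.48, 14 fragments and a −log10 q of 1.97, 2.57 kb upstream of the gene, and it held 2 cores. Psmc3, Psmc4, Psmc5 and Psmc6 had no peak.

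Psmd1, a scaffold subunit of the base, had its peaks 80.0 and 83.1 kb downstream of its TSS, deep in an intron. They were chr1:88041201-88041319, with a fold of 5.02 on 10 fragments, and chr1:88044223-88044453, with a fold of 8.18 on 27 fragments, and both held the core. Armc9 was the nearer gene, with its TSS 10.1 and 7.05 kb from these summits. Psmd1 is the only bound gene without a peak within 5 kb of a TSS. Psmd2, another scaffold, and Psmd4, a ubiquitin receptor, had no peak.

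In the lid, Psmd7 had the strongest peak outside Psma6. This peak, chr8:110112184-110112402, had a fold of 11.6 with 25 fragments (16.2 to 36.9), 86 bp downstream of the TSS in the 5′ untranslated exon, with the core 12.5 bp from the summit. Psmd7 is the structural partner of Psmd14, the subunit that cuts ubiquitin from the substrate. Psmd14 was the farthest of the 41 from any peak, with the nearest summit 700 kb away. Psmd8 had a peak 12 bp downstream of its TSS, chr7:29965588-29965748, with a fold of 6.82, 14 fragments and no core.

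Psmd13, a structural lid subunit, shares its promoter with Sirt3, a mitochondrial deacetylase. The peak at this shared promoter, chr7:148068197-148068319, had a fold of 5.91 on 19 fragments and held the core. It lay 126 bp upstream of one Psmd13 TSS and 37 bp from the TSS of Sirt3. The higher peak, chr7:148063355-148063534, had a fold of 10.2 on 34 fragments (23.5 to 47.5) and no core. It lay 4.42 kb upstream of Psmd13. Its nearest TSS of Sirt3, 601 bp away, is another than the one at the shared promoter and lies further into Sirt3. Psmd3, Psmd6, Psmd11 and Psmd12 had no peak.

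Of the activators, only Psme4, which encodes a nuclear activator, was bound, with the peak chr11:30672893-30673075 at a fold of 6.39 on 13 fragments, 664 bp downstream of the TSS in an intron, and a core. Psme1 and Psme2, the interferon-inducible activator subunits, and Psme3 had no peak, with nearest summits at 20.8, 13 and 89.8 kb. The X-linked chaperone gene Psmd10, outside the autosomal set, also had none.

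The threshold of 5 kb decided few assignments. Inside it, but outside promoter and gene body, were the peaks upstream of Psmb1 at 1.68 kb, Psmc1 at 2.57 kb and Psmd13 at 4.42 kb. Beyond it were a peak 6.17 kb upstream of Psmd12, with a fold of 7.69 on 16 fragments, and a further peak 7.51 kb upstream of Psmd13, with a fold of 10.4 on 24 fragments. Of the 29 genes without a peak, 7 had a summit within 20 kb of a TSS and 9 had none within 50 kb. Their median distance to the nearest summit was 35.5 kb, against 86.1 kb for all autosomal genes without a peak.

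Of the 18 peaks, 8 lay in the promoter of the gene and 10 outside it, 7 of these inside the gene body and 3 upstream. For 13 of them the nearest protein-coding TSS belonged to the proteasome gene, and for 5 to another gene. The promoter peaks had a median fold of 7.36, against 7.62 over all 2981 promoter peaks of the list.

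**Figure D3:**
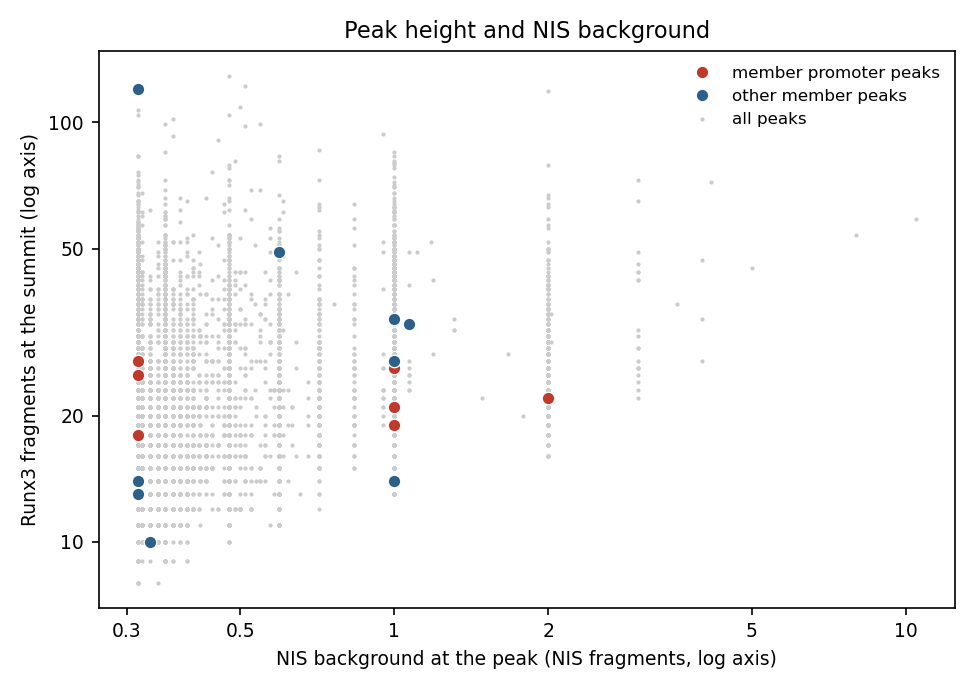
Runx3 fragments at the summit against the NIS background of each peak, in NIS fragments (both axes log), with the promoter peaks of proteasome genes in red, their other peaks in blue and all 13014 peaks in grey. The columns at 1 and 2 are whole NIS fragments over the summit, and 8 of the 18 coloured points lie at or beyond the column at 1.

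The NIS background lay at the genome average in 8 of the 18 peaks (44.4%), against 44.8% of all peaks. Its upper end differed from the list, by a difference that was not tested. The background exceeded 0.9, about the level of 1 NIS fragment over the summit, in 8 of the 18 peaks (44.4%), against 17.3% of all peaks. In the promoter peaks this was 4 of 8, against 16.9% of all promoter peaks, and without Psma6 it was 8 of 14. The peaks concerned were at Psmb2, Psmb4, Psmc1, Psmc2 (both), Psmd1 (the stronger) and Psmd13 (both). A higher background lowers the fold of a summit with the same number of fragments, and its part in the median fold was not tested. All 4 Psma6 peaks had a background of 0.595 or less.

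The RUNX core was present in 12 of 18 peaks, or 66.7% (43.7 to 83.7), against 64.2% of all peaks. In windows of the same size 1 kb upstream and downstream of the 18 summits it was present in 16.7% and 27.8%, against 17.6% and 16.9% for all peaks. The cores lay a median of 14.5 bp from the summit (0.5 to 49.5), and 8 of the 12 lay within 20 bp. In the promoter peaks 5 of 8 held the core (62.5%, 30.6 to 86.3), against 47.2% of all promoter peaks. The form TGTGGT was present in 1 of the 8 promoter peaks, that of Psmb2, against 23.8% of all promoter peaks. It was present in 6 of the 10 peaks outside promoters, against 61.1% of all such peaks.

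Other promoter words were counted in the same windows. The ETS core CCGGAAG was present in 4 of 8 promoter peaks, those of Psma6, Psmc2, Psmd7 and Psmd13, against 17.1% of all promoter peaks. CCAAT, bound by NF-Y, was present in 2 of 8, against 23.2%. The cyclic AMP element TGACGTCA was present in the Psmb2 peak, against 2.55%, and the E-box CACGTG in the Psma4 peak, against 6.68%. The antioxidant element TGACNNNGC, the kind of word bound by Nrf1, which drives proteasome genes when the proteasome is impaired, was present in 0 of 8, against 12%. With 8 peaks these counts are descriptions of single promoters.

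Gene length and promoter type were set beside the counts, since longer genes and genes with CpG-rich promoters had peaks more often across the annotation. The 41 genes had a median length of 12.4 kb, against 15.6 kb for all autosomal genes, and the bound members a median of 17.6 kb, against 11.5 kb for those without a peak. In the shortest, middle and longest tercile of all genes (limits at 7.61 and 29.6 kb), 3 of 13, 5 of 20 and 4 of 8 proteasome genes were bound, against 14.8%, 28.5% and 42.8% of all genes. A CpG-rich promoter was found at 58.5% of the 41 genes, against 43.3% of all genes. Of these 24 genes 8 were bound (33.3%, 18 to 53.3), against 43.7% of all genes with such a promoter, and 6 had a promoter peak (25.0%), against 24.1%. A neighbour starting on the opposite strand within 1 kb was found at 7 genes, of which Psma4, Psmc2 and Psmd13 were bound and Psma2, Psma7, Psmc5 and Psme2 were not, against 44.9% of all genes with such a neighbour.

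Without regard to gene length, the share of bound subunits lay near those of other housekeeping families, taken by gene name alone. Pseudogene copies typed as protein-coding and assembly factors were not removed where they carried such names. Of the genes named as cytoplasmic ribosomal proteins 38 of 134 were bound (28.4%). Of those named as respiratory chain and ATP synthase genes 24 of 88 were bound (27.3%). These families hold shorter genes. The median length was 12.4 kb for the subunit genes, 2.02 kb for the ribosomal protein genes and 7.59 kb for the respiratory genes. Of all autosomal genes in the shortest tercile, 14.8% were bound. The families were not compared at matched length. Promoter peaks were found at 19.5% of the proteasome subunits, 19.4% of the ribosomal protein genes and 19.3% of the respiratory genes. The immunoproteasome genes had no peak in 3, a number that allows a share of up to 56.1%.

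Genes that work with the proteasome without being named as its subunits had a higher share of bound genes than the subunits and than all genes, by a difference that was not tested. Of 22 partners, 13 were bound (59.1%, 38.7 to 76.7), against 28.7% of all autosomal genes. A promoter peak was found at 11 of 22, against 13.9% of all autosomal genes. Among them, Ngly1, a deglycosylase that activates Nrf1, had a best fold of 12.9 on 28 fragments. Uchl5, a deubiquitinase of the regulatory particle, had 11.3 on 25, and Nfe2l1, which encodes Nrf1, 8.12 on 17. The assembly factors Psmg3 and Pomp had best folds of 8.48 and 5.31. Partners without a peak included Psmg1, Psmg2, Psmg4, Psmf1, Adrm1, Usp14, Ddi2 and Rps27a. The partner list is short and was chosen with earlier results of these data known, and its interval and that of the subunits overlap. The partners' interval also holds 43.7%, the share of bound genes among all those with a CpG-rich promoter.

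**Figure D4:**
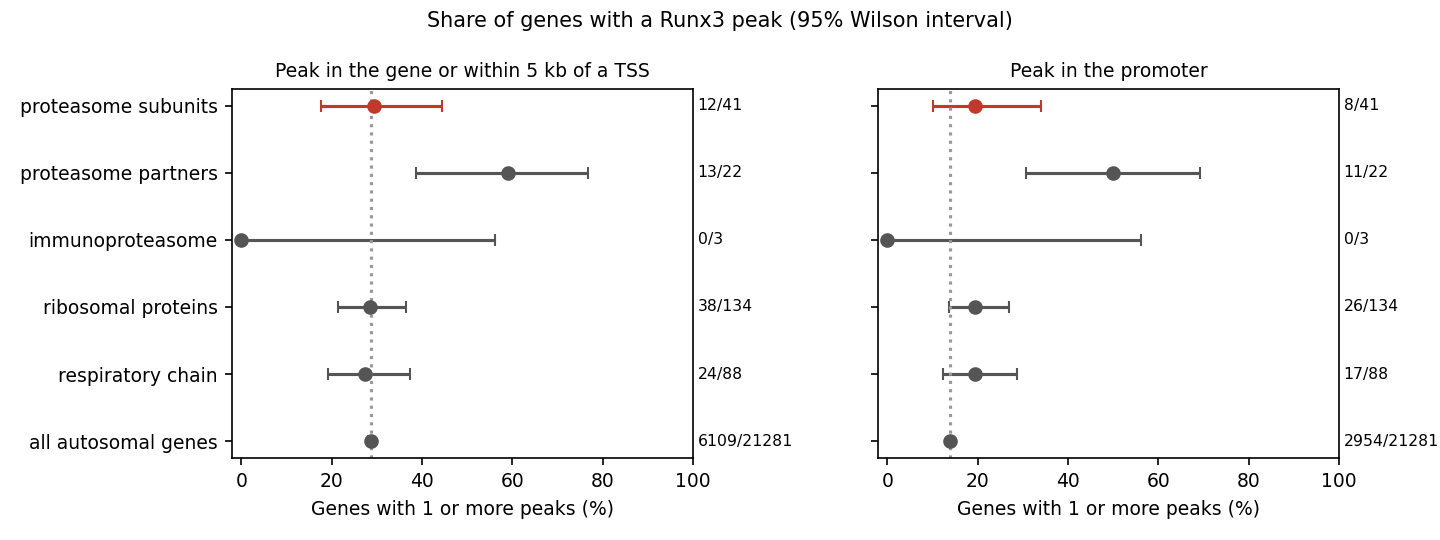
Share of genes with a Runx3 peak by the gene rule (left) and in the promoter (right), in percent, with 95% Wilson intervals, for the 41 proteasome subunit genes (red), their partners, 3 other families and all autosomal genes (dotted line). The subunits lie at 29.3% and 19.5%, against 28.7% and 13.9% for all genes, and the partners at 59.1% by the gene rule and 11 of 22 in the promoter.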

How the data were processed

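Base calls were made with CASAVA 1.8, reads were aligned uniquely to mm9 with Bowtie 1 and peaks were called with MACS2 2.0.10, per the submitters' processing notes and the file header (q cutoff 0.05, 1 tag kept per position, fragment length 119 bp, larger library scaled to the smaller). The deposited pileup is a coverage signal, from which Runx3 fragments were recovered as whole multiples of 0.569 (within 0.00872 of a fragment). The deposited fold enrichment is a ratio, from which the NIS background was solved. In the deposited file the −log10 q column had an unreadable header cell, as did the −log10 p column, and was identified by its position; the p column was not used. Unique alignment drops reads that match several places, so near-identical repeats can lack peaks, and removing duplicates limits summit height.

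Genes came from GENCODE vM1 and sequence from NCBIM37, the build of the peaks. All 41 genes were accounted for. Every bound gene is named, and the 10 peaks of highest fold are shown in sequence; 3 peaks tied for the last of these places, of which that of Psma6 is shown, and the lower Psmd13 peak was added. A CpG-rich promoter had an observed to expected CpG ratio above 0.6 and above 55% GC within 500 bp of the TSS. Shares carry 95% Wilson intervals and fragments exact Poisson intervals; no test was made, since there was 1 pooled list. Some partner genes are counted but not reported here by name. The members and gene lists were chosen with earlier results of these data known. Alternatives were other distances, score limits, core forms and pseudocounts. Sequences were read with pysam 0.24.0, and tables handled with pandas 2.3.3 and NumPy 2.4.6 under Python 3.11.15. Intervals were taken from SciPy 1.17.1 and figures drawn with matplotlib 3.10.9. The assignment rule and the core search were checked on made-up input in a separately written form, not through the code that made the results. The Wilson interval was checked through the same code.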

Additional observations from a re-analysis of the deposited data

How the results depend on the processing

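The share of proteasome genes with a peak stayed between 22.0% and 31.7% under 10 alternatives (other distances, any overlap, a −log10 q of 5 or more, peaks with a core, gene sets without Psmc3ip, Psme2b-ps, Psma8 and Psmb11, Psma6 from its inner TSS). Leaving out Psme2b-ps and taking Psma6 from its inner TSS were choices made after seeing the data. Under the same settings 19.8% to 32.4% of all genes had a peak. The proteasome share lay below that of all genes with 1 kb beside the gene body (24.4% against 25.9%). It lay above with 5 kb from a TSS only (26.8% against 22.3%). With peaks of fold 10 or more it was 7.32% (3 of 41 genes), against 10.1% of all genes. The share of promoters with a peak stayed between 14.6% and 19.5%, against 10.7% to 14.6% of all genes. The share of peaks with the core was 38.9% for TGTGGT alone, against 52.6% of all peaks. It was 88.9% for the first 5 letters, against 91.6%, a choice made after seeing the data. Another 4 choices gave 61.1% to 64.3%. It was 61.1% within 50 bp of the summit, against 56.8% of all peaks, and 61.1% in the peak interval, against 64.4%. With a −log10 q of 5 or more it was 64.3%, against 67.0%. Without the Psma6 peaks, a choice also made after seeing the data, it was 64.3%, against 64.2%. The median fold was 2.85 with a pseudocount of 5, against 2.87 over all peaks, a shift that the pseudocount itself makes, and 6.82 without Psma6 (added after seeing the data). The strongest member peak ranked 2 with a pseudocount of 5 and 3 by pileup. Counting only peaks within 5 kb of a TSS, a choice made after seeing the data, the strongest was the 18.1-fold Psma6 peak at rank 419. Leaving out single libraries was not possible because the list pools them. No paired analysis was possible because no value per library was analysed here and no result comes from a test.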
